A study of Mus musculus with 32 samples.

Results

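Cholesterol and fatty acid synthesis genes were followed across populations of mouse bone marrow, the tissue in which blood cells form. The group was a list of 30 genes, and its members were the probe sets whose platform annotation gives 1 of these gene symbols. Of the 30 genes, 29 had a probe set of their own, out of 18193 genes with such a probe set in all. Acat2 had none and was not analysed here. The 29 genes had 73 probe sets, of which 57 passed the filter on low signal, and 23 genes had more than 1. Each gene was represented by its probe set with the highest mean signal, and all 29 representatives passed the filter.

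Each of 16 RNA samples had been hybridised to a pair of Affymetrix arrays, chip types A and B, 32 arrays in all. Stem-enriched cells were sorted from marrow, and the instrument records describe them as negative for lineage markers and positive for Sca-1 and cKit, a pair of surface proteins of immature marrow cells. Sorted cKit-positive cells and sorted cKit-negative cells were both labelled as negative for lineage markers and for Sca-1. Lineage-depleted marrow had mature cells removed with an antibody-based kit, with a purification of 20 to 24 fold per the labels, and total marrow was not separated. These 5 populations had 3 samples each. A single sample of sorted Sca-1-positive cKit-negative cells, also labelled lineage-negative and 98% pure per the labels, stood alone. The other sorted populations were over 90% pure. The labels name no treatment, and mouse strain, age and genotype are not given in the sources used here. Nothing in them says that replicate samples came from separate mice, so p-values measure the spread between these samples, which may be technical.

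Cells build cholesterol from acetyl-CoA through the mevalonate pathway and a chain of sterol intermediates. Fatty acids are built from the same precursor by fatty acid synthase and are then lengthened by elongases and given double bonds by desaturases. Transcription factors of the SREBP family, held in the endoplasmic reticulum by Insig proteins when sterols are plentiful, switch on most of these genes. Dividing cells draw on both products for new membranes.

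SREBP proteins bind sterol regulatory elements next to CCAAT boxes, the sites of NF-Y, so the promoters of the genes are shown before their levels. Windows of 250 bases before to 50 bases after a gene start came from RefSeq (GRCm38.p6) for 23 of the 30 genes. The letters TCACNCCAC, CCAAT and CACGTG were searched on both strands, and matches may overlap, as where CCAAT lies on both strands. TCACNCCAC, the core of a sterol regulatory element, was found for 1 of the 23 genes, Hmgcs1 (4.35%), and for 1.44% of 27025 genes with a window. CCAAT was found for 19 of the 23 genes (82.6%) and for 41.1% of all genes with a window. CACGTG, an E-box, was found for 5 of the 23 genes (21.7%), namely Hsd17b7, Sc5d, Dhcr7, Elovl5 and Insig1, and for 8.09% of all genes. These are matches of letters, and binding was not measured. The 150 bases before the start are printed 5′ to 3′ on the gene's strand for 4 genes, with matches in capitals. Hmgcs1 is shown for the sterol element, Dhcr7 and Sc5d because these late sterol enzymes differed in opposite directions between marrow populations, and Elovl6 because it differed and holds no match in this stretch. The stretches lie at chr13:119690201-119690350 on the plus strand for Hmgcs1, chr7:143830064-143830213 on the plus strand for Dhcr7, chr9:42264301-42264450 on the minus strand for Sc5d and chr3:129532236-129532385 on the plus strand for Elovl6. Dhcr7 has 3 windows in the table, and the printed one is the window with CCAAT.
Hmgcs1: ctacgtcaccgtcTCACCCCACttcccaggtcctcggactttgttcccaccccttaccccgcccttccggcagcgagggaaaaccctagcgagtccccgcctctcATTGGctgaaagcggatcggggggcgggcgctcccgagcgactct
Dhcr7: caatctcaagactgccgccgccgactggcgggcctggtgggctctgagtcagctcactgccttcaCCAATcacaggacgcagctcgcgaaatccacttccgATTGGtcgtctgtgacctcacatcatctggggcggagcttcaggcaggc
Sc5d: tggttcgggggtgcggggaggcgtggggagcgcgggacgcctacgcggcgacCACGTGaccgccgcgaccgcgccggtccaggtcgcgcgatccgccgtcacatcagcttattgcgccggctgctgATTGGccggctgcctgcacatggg
Elovl6: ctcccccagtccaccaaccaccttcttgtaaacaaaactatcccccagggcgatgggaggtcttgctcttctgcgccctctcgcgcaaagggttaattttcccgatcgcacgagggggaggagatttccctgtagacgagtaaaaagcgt

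Values are log2 of the deposited signal after a floor, and levels of different genes are not set against each other, since probe sets differ in brightness. The arrays' median signals ranged from 453 to 879.9 (chip type A) and from 789.9 to 1010.8 (chip type B). Between stem-enriched cells and total marrow, markers followed the labels. In stem-enriched cells 8 of 9 stem and progenitor markers were higher, and all 9 late granulocyte markers were lower (limma, Benjamini-Hochberg adjusted p under 0.05). Late granulocyte markers averaged 15.5 to 15.63 in total marrow and 14.04 to 15.4 in cKit-negative cells, against 10.79 to 11.33 in stem-enriched cells. Though labelled lineage-negative, cKit-negative cells also averaged 11.6 to 12.03 for T and NK cell markers, against 9.89 to 10.27 in total marrow. Their mast cell, basophil and eosinophil markers averaged 14.24 to 14.25, against 12.12 to 12.27 in total marrow. Erythroid markers averaged 12.58 to 13.09 in total marrow and 9.33 to 10.16 in stem-enriched cells. In such mixed RNA, fewer cells of a type and less RNA per cell cannot be told apart. One library stood apart, cKit-positive sample 2. Its correlation with other samples over probe sets was 0.571 to 0.69, against 0.74 to 0.934 for the other pairs. Its log2 ratio of 3 prime to 5 prime Gapdh signal, a measure of RNA integrity and labelling, was 0.38 on chip type A. In the 14 other fitted samples it was 2.68 to 4.17, so the Gapdh signal of cKit-positive sample 2 leaned least to the 3 prime end. Among the 29 genes, 5 lay above and 11 below all 14 other samples in cKit-positive sample 2, so results are also given without it. The same count was not made over all tested genes, so it cannot be read as particular to these 29. The 3 stem-enriched samples had the highest ratios on chip type A, 4.17, 3.84 and 3.98, and the next was 3.59 in lineage-depleted marrow. Contrasts with stem-enriched cells therefore also compare unlike ratios.

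An F test over the 5 populations (limma, Benjamini-Hochberg adjusted over all probe sets) called 6 of the 29 genes, Scd1, Scd2, Dhcr7, Elovl6, Fdft1 and Sc5d. That is 20.7%, against 20% of the 13555 genes tested, so the set as a whole was called about as often as any gene. The range between the highest and the lowest population mean had a median of 1.07 over the 29 genes and 0.95 over all tested genes on the log2 scale. Pairs of sterol-side genes, from the mevalonate and sterol steps, had a median Pearson r of 0.07 across the 15 samples, and pairs of fatty-acid-side genes a median of 0.17. Without cKit-positive sample 2 these medians were -0.02 and 0.22, and for a member with any other tested gene the median was 0.01 with and without it. All points share their library, so these are descriptions only. The heat map of all 29 genes shows no population in which they were high or low as a block.

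**Figure D1:**
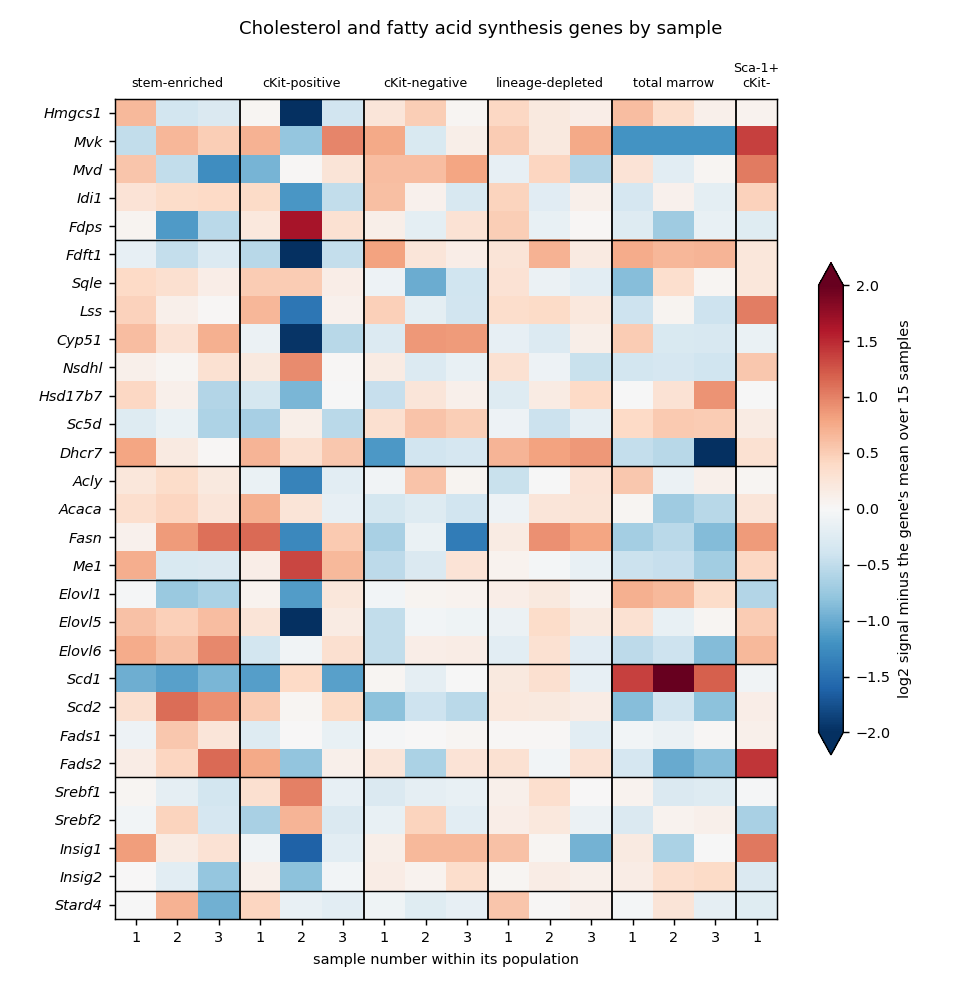
Log2 signal of 29 genes (rows, grouped by step of the pathway) in 16 samples (columns), each minus the gene's mean over the 15 samples of the replicated populations; red is higher and blue lower, and colours are capped at 2 log2 units. Sample 2 of the cKit-positive cells has a column unlike its neighbours, and no population is red or blue throughout.

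Scd1 and Scd2 encode stearoyl-CoA desaturases, which place the first double bond in saturated fatty acids. In total marrow Scd1 had its highest mean and Scd2 its lowest. Scd1 (probe set 1415964_at) was 11.57, 12.2 and 11.39 in total marrow and 9.22, 9.12 and 9.28 in stem-enriched cells. It was 9.1, 10.6 and 9.12 for cKit-positive cells, 10.24, 10.02 and 10.19 in cKit-negative cells and 10.4, 10.52 and 10.04 in lineage-depleted marrow. Every total marrow sample lay above all others, and the stem-enriched samples lay below those of cKit-negative cells and lineage-depleted marrow. The high cKit-positive value was that of sample 2. Scd1 was 5.71-fold lower in stem-enriched cells than in total marrow (log2 -2.51 ± 0.34 SE, adjusted p = 0.000104), 4.32-fold lower in cKit-positive cells (adjusted p = 0.000456) and 2.64-fold lower in lineage-depleted marrow (adjusted p = 0.0292; limma, n = 3 per population). The last call ended in 6 of 15 fits that each left out 1 sample, those without any 1 of the 6 samples compared, with the log2 difference between -1.79 and -1.16 over all alternatives. The cKit-negative samples lay below those of total marrow, a pair that was not tested, and both populations were rich in late granulocyte markers. Adipocyte markers, measured because adipocytes are known for high Scd1, averaged 7.55 to 7.65 in total marrow, near the floor of 7.34, with 3 of 5 measured markers at the floor in all 3 samples, and 7.7 to 7.98 in stem-enriched cells. Only 1 of these 5 adipocyte markers passed the filter on low signal. The part of adipocytes, erythroid cells and granulocytes in the difference was not tested.

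Scd2 (1415822_at) was 12.71, 13.51 and 13.31 in stem-enriched cells, 12.9, 12.44 and 12.78 for cKit-positive cells and 12.6, 12.59 and 12.55 in lineage-depleted marrow. It was 11.57, 11.99 and 11.86 in cKit-negative cells and 11.55, 12.02 and 11.57 in total marrow. The 9 samples of the first 3 populations all lay above the 6 of the other two. Scd2 was 2.76-fold higher in stem-enriched cells than in total marrow (log2 1.46 ± 0.23 SE, adjusted p = 0.00037) and 2.59-fold higher than in cKit-negative cells (1.37 ± 0.23, adjusted p = 0.000941, limma). In cKit-positive cells it was 1.99-fold higher than in total marrow (adjusted p = 0.0064) and 1.87-fold higher than in cKit-negative cells (adjusted p = 0.0164), and in lineage-depleted marrow 1.82-fold higher than in total marrow (adjusted p = 0.0415). The other Scd2 probe sets also passed the F test (adjusted p = 0.0124 and 0.0173). The calls for stem-enriched cells held under all 29 alternatives, while that for lineage-depleted marrow held under 14 of 29. Without cKit-negative sample 1 the call between cKit-positive and cKit-negative cells was lost. Pearson's r between Scd1 and Scd2 over the 15 samples, a description only, was -0.73.

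Fads1 and Fads2 encode the desaturases that make polyunsaturated fatty acids. Fads2 was 10.05, 10.34 and 11.04 in stem-enriched cells and 9.56, 8.89 and 9.05 in total marrow, without overlap, and 2.48-fold higher (log2 1.31 ± 0.38 SE, adjusted p = 0.0289, limma). This call was lost in 9 of 29 alternatives, with the log2 difference between 0.81 and 2.24 over all of them. It was lost without stem-enriched sample 2 or 3 or total marrow sample 2 or 3. The others were quantile normalization, no filter, the Gapdh ratio, scan day and the mean over the gene's probe sets. Fads1 had population means between 12.25 and 12.61 and was not called in any comparison.

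Among the elongases, Elovl6, which lengthens 16-carbon fatty acids, was 11.67, 11.51 and 11.89 in stem-enriched cells and 10.41, 10.51 and 10.06 in total marrow. It was 10.56, 10.86 and 11.25 in cKit-positive cells, 10.44, 11.06 and 11.08 in cKit-negative cells and 10.72, 11.23 and 10.71 in lineage-depleted marrow. The stem-enriched samples lay above all 12 others. The difference from total marrow was 2.57-fold (log2 1.36 ± 0.25 SE, adjusted p = 0.00157, limma), and with chip lot as a block it was 0.73 and not called. The F test call was lost without stem-enriched sample 3. The 2 other Elovl6 probe sets did not pass the F test (adjusted p = 0.14 and 0.926). Elovl1, which lengthens very long chains, was 12.08, 11.36 and 11.47 in stem-enriched cells and 12.81, 12.75 and 12.47 in total marrow. Its difference was -1.04 ± 0.29 (adjusted p = 0.0232, limma), and -0.45 with no call when the probe set was one without an x or s suffix. The call was lost in 9 of 29 alternatives, among them the fits without stem-enriched sample 2 or 3 or total marrow sample 1 or 2. An x or s marks a probe set that may match other transcripts, and the representatives of 7 of the 29 genes carry one. Elovl5 had population means between 14.07 and 15.19 and was not called.

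**Figure D2:**
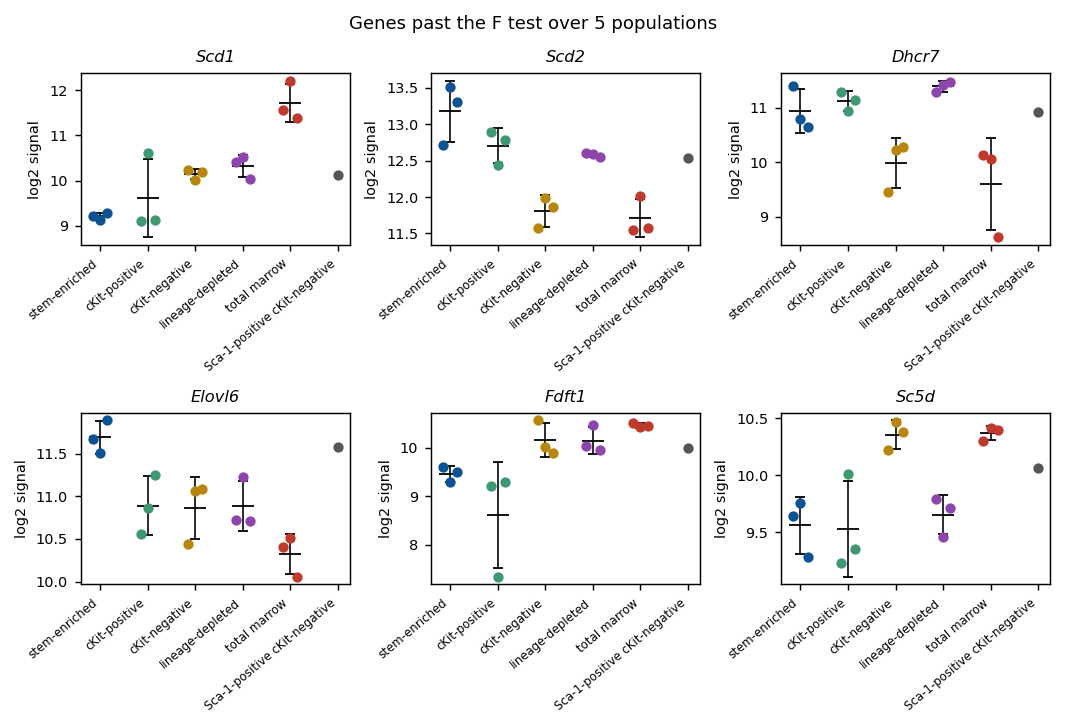
Log2 signal of the 6 genes past the F test in each sample (points), with the mean and SD of each population of 3 (bars); the single Sca-1-positive cKit-negative sample has no bar. Scd1 is highest in total marrow and Scd2 in stem-enriched cells, and for Fdft1 one cKit-positive sample lies at the floor of 7.34.

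In the sterol branch, the late enzymes diverged. Dhcr7 makes cholesterol from its last precursor in the pathway named for Kandutsch and Russell. Dhcr7 (1448619_at) was 11.29, 11.41 and 11.48 in lineage-depleted marrow, 11.29, 10.93 and 11.15 for cKit-positive cells and 11.4, 10.79 and 10.64 for stem-enriched cells. It was 9.46, 10.22 and 10.28 in cKit-negative cells and 10.13, 10.05 and 8.62 in total marrow. The first 9 samples all lay above the other 6, the same division as for Scd2. Against total marrow, Dhcr7 was 3.47-fold higher in lineage-depleted marrow (adjusted p = 0.00933), 2.87-fold higher for cKit-positive cells (adjusted p = 0.00672) and 2.53-fold higher for stem-enriched cells (adjusted p = 0.0163, limma). The last was lost without stem-enriched sample 1 or total marrow sample 3. Dhcr7 was 2.2-fold higher in cKit-positive cells than in the cKit-negative ones (adjusted p = 0.0459), a call that held under 11 of 29 alternatives.

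Sc5d, the desaturase that acts just before Dhcr7, ran the other way. It (1451457_at) was 10.22, 10.47 and 10.38 in cKit-negative cells and 10.3, 10.42 and 10.4 in total marrow. It was 9.64, 9.76 and 9.28 for stem-enriched cells, 9.23, 10.01 and 9.35 for cKit-positive cells and 9.79, 9.46 and 9.71 in lineage-depleted marrow. The 6 samples of the first 2 populations lay above all others. Sc5d was lower than in total marrow by 1.76-fold for stem-enriched cells (adjusted p = 0.0394) and 1.8-fold for cKit-positive cells (adjusted p = 0.0296), and 1.78-fold lower in cKit-positive cells than in the cKit-negative ones (adjusted p = 0.0426, limma). These calls were near the threshold and held under 15, 19 and 11 of 28 alternatives. The F test call, too, was lost in 6 of 15 fits that left out 1 sample: stem-enriched sample 3, cKit-negative samples 2 and 3 and each total marrow sample. The other Sc5d probe set past the filter had an F test adjusted p of 0.621.

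Fdft1, squalene synthase, takes the first step that leads only to sterols. Its representative (1438322_x_at) was 9.6, 9.29 and 9.5 for stem-enriched cells, 9.21, 7.34 and 9.29 for cKit-positive cells, 10.57, 10.02 and 9.9 in cKit-negative cells, 10.03, 10.47 and 9.95 in lineage-depleted marrow and 10.52, 10.43 and 10.45 in total marrow. The first 2 populations lay below the other 3, and the value of 7.34 is the floor. Fdft1 was 3.61-fold lower in cKit-positive cells than in total marrow (log2 -1.85 ± 0.40 SE, adjusted p = 0.0042) and 2.92-fold lower than in cKit-negative cells (-1.55 ± 0.40, adjusted p = 0.0186, limma). The second call was lost without cKit-negative sample 1 or 2. The 3 other Fdft1 probe sets past the filter did not pass the F test (adjusted p = 0.143, 0.154 and 0.252), and some ran the other way. Between cKit-positive and cKit-negative cells, 1438919_x_at differed by 1.53 ± 0.56 SE on the log2 scale (adjusted p = 0.0882, limma), and 1438918_at and 1448130_at by -0.29 and -0.39. Between cKit-positive cells and total marrow, the differences of these 3 were 0.83, 0.9 and -0.63. A lower Fdft1 in cKit-positive cells thus rests on 1 probe set that may match other transcripts. Without cKit-positive sample 2, Fdft1 kept both calls, with folds of 2.32 against total marrow (adjusted p = 0.00273) and 1.88 against cKit-negative cells (adjusted p = 0.0234, limma). In that fit it was also lower in stem-enriched cells than in cKit-negative cells (adjusted p = 0.0461) and total marrow (adjusted p = 0.00397).

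The remaining sterol enzymes gave no call. Sqle, Lss, Cyp51, Nsdhl and Hsd17b7 carry squalene to the later sterols, and their ranges between population means were 0.88, 0.58, 1.41, 0.75 and 0.83. In Cyp51 the lowest value, 7.41, was that of cKit-positive sample 2, and the other 14 samples lay between 8.82 and 10.25.

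Among the mevalonate genes, Mvk, mevalonate kinase, was at the floor of 7.34 in all 3 total marrow samples. It was 9.23, 7.76 and 9.52 for cKit-positive cells, 8.05, 9.2 and 9.03 for stem-enriched cells, 9.29, 8.23 and 8.65 in cKit-negative cells and 9.04, 8.73 and 9.29 in lineage-depleted marrow. No sample outside total marrow was at the floor. The cKit-positive cells were at least 2.82-fold higher than total marrow (adjusted p = 0.041, limma), a call that held under 14 of 28 alternatives. Hmgcs1, which makes HMG-CoA, had values from 10.34 to 13.21, the lowest in cKit-positive sample 2 and the next 12.17. This representative was not called, but other Hmgcs1 probe sets were lower than in total marrow. In stem-enriched cells 1433445_x_at differed by log2 -1.21 ± 0.36 SE (adjusted p = 0.0339). In cKit-positive cells 1433444_at differed by -1.65 ± 0.52 SE (adjusted p = 0.0378, limma), and 1433446_at by 0.12. The 2 called probe sets did not pass the F test (adjusted p = 0.128 and 0.11). Mvd and Idi1, which act after mevalonate kinase, and Fdps, which joins the isoprene units, were not called in any comparison. Fdps was 11.78 in cKit-positive sample 2 and 8.99 to 10.62 in the others.

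Fatty acid synthesis genes Acly, Acaca and Fasn, which supply and join the carbon units, were not called with all 15 samples. Fasn was 10.05, 10.81 and 11.07 in stem-enriched cells, 10.13, 10.88 and 10.76 in lineage-depleted marrow, 9.29, 9.42 and 9.09 in total marrow and 9.32, 9.83 and 8.56 in cKit-negative cells, and 11.1, 8.67 and 10.49 in cKit-positive cells. Its stem-enriched samples lay above those of total marrow (log2 1.38 ± 0.49 SE, adjusted p = 0.0716), and cKit-positive sample 2 lay among the cKit-negative samples. Without that sample the F test called Fasn (adjusted p = 0.00249), and stem-enriched cells were higher than total marrow (adjusted p = 0.00658) and cKit-negative cells (adjusted p = 0.00837). Acaca, acetyl-CoA carboxylase, was 12.82, 12.91 and 12.72 in stem-enriched cells and 12.53, 11.78 and 11.93 in total marrow (log2 0.74 ± 0.26 SE, adjusted p = 0.0666), and without cKit-positive sample 2 this difference had an adjusted p of 0.0347. Me1, malic enzyme, which yields NADPH for the synthesis, was 9.81, 11.02 and 10.33 in cKit-positive cells and 9.25, 9.22 and 8.98 in total marrow. It was 2.35-fold higher in cKit-positive cells (log2 1.23 ± 0.35 SE, adjusted p = 0.0213, limma), but not without sample 2 (adjusted p = 0.0694), nor without total marrow sample 2 or 3. The Acly representative (1439459_x_at) had means between 13.06 and 13.89, and 1 other Acly probe set, 1425326_at, passed the F test (adjusted p = 0.0249) with its highest mean, 10.65, in cKit-positive cells.

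The regulators showed no called difference between populations. Srebf2, the SREBP gene tied to cholesterol synthesis, had population means between 10.81 and 10.98. Its level in cKit-positive sample 2 was 11.58, above the 14 others, and without that sample the range between population means was 0.55 instead of 0.17. The other Srebf2 probe set past the filter, 1426744_at, had a range of 1.48 and did not pass the F test (adjusted p = 0.188, limma). Srebf1, the gene tied more to fatty acid synthesis, had means between 11.16 and 11.75. Insig1 and Insig2, which retain SREBP in the endoplasmic reticulum, had ranges of 1.1 and 0.62, and Insig1 was 10.47 in cKit-positive sample 2 and 11.14 to 12.92 in the others. Stard4, a carrier of sterols between membranes, had a range of 0.39. A p above the threshold does not show that levels were alike: the log2 difference of Srebf2 between stem-enriched cells and total marrow was 0.05 ± 0.31 SE, and 1.06 ± 0.53 SE with probe set 1426744_at (adjusted p = 0.213, limma). With that probe set the difference between stem-enriched and cKit-positive cells was 1.47 ± 0.53 SE (unadjusted p = 0.0129, adjusted p = 0.171).

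**Figure D3:**
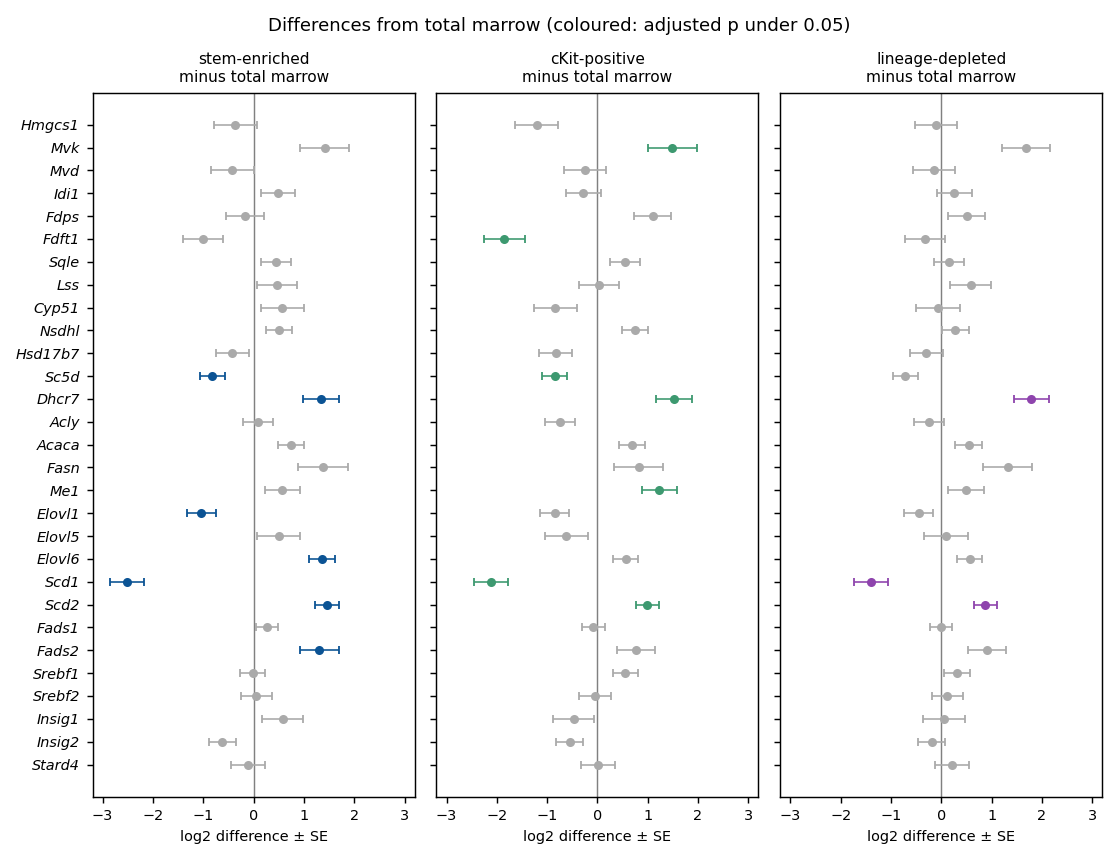
Log2 difference from total marrow (x axis) for 29 genes in stem-enriched cells, cKit-positive cells and lineage-depleted marrow, with the standard error of the limma fit; coloured points have an adjusted p under 0.05. Scd1 lies left of 0 and Dhcr7 and Scd2 lie right of 0 in all 3 panels.

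Counted by comparison, few of the 29 genes were called, in either direction. Between stem-enriched and cKit-positive cells the count was 0 higher and 0 lower, against 1.8% and 0.657% of all tested genes. An unadjusted p under 0.05 was reached there by 9 of the 29 and by 2319 of all 13555 tested genes (limma). Between stem-enriched and cKit-negative cells the count was 1 higher, Scd2, and 0 lower, against 4.55% and 5.35%. Between cKit-positive and cKit-negative cells 2 were higher and 2 lower, against 5.86% and 7.45%. Against total marrow, 4 were higher and 3 lower in stem-enriched cells (8.4% and 8.26% of all genes), 4 and 3 in cKit-positive cells (9.3% and 10.7%), and 2 and 1 in lineage-depleted marrow (2.57% and 2.61%). The last 3 comparisons share their total marrow samples. Median log2 differences over the 29 genes ran from -0.14 between cKit-positive and cKit-negative cells to 0.45 between stem-enriched cells and total marrow, where all tested genes had medians of 0.1 and 0.13. The cKit-positive cells had the lowest mean of the 5 populations for 11 of the 29 genes (37.9%, against 23.1% of all genes), with sample 2 of them included. Total marrow had the lowest for 9 (31%, against 28.3%), and stem-enriched cells had the highest for 10 (34.5%, against 24.1%).

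Without cKit-positive sample 2, the F test called 11 of the 29 genes, against 29.1% of all tested genes: the 6 named above with Mvk, Fasn, Elovl1, Elovl5 and Fads2. The count became 7 instead of 1 between stem-enriched and cKit-negative cells (17.1% of all genes called), 12 instead of 7 between stem-enriched cells and total marrow (25.5%) and 6 instead of 3 between lineage-depleted and total marrow (11.8%). It became 6 instead of 4 between cKit-positive and cKit-negative cells (16.2%) and 8 instead of 7 between cKit-positive cells and total marrow (21% of all genes). In that fit Scd1 was also lower in stem-enriched cells than in the cKit-negative ones (adjusted p = 0.00865), Elovl6 was higher (adjusted p = 0.0285) and Elovl5 was higher (adjusted p = 0.00578, limma). Between stem-enriched and cKit-positive cells it was again 0 (3.53% of all genes).

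Of 61 further genes of sterol and fatty acid metabolism, 48 were tested, and the F test called 9 (18.8%, against 20% of all tested genes). The largest differences were in the last step of triglyceride assembly. Dgat1 had population means of 14.68 ± 0.18 (SD, n = 3) in total marrow and 11.40 ± 0.19 in stem-enriched cells, a difference of 9.68-fold (adjusted p = 1.94e-06), and it was 4.71-fold lower in cKit-positive cells than in the cKit-negative ones (adjusted p = 9.46e-05, limma). Dgat2 was 13.01 ± 0.27 in total marrow and 10.45 ± 0.42 in stem-enriched cells, 5.9-fold lower (adjusted p = 7.42e-05). Unlike Scd1, Dgat1 was also high in cKit-negative cells (13.52 ± 0.57). Late granulocyte markers were high in the same populations, and their part was not tested. Pgd, of the NADPH-yielding pentose phosphate pathway, and Lbr, a sterol reductase of the nuclear envelope, were lower in stem-enriched cells than in total marrow by 4.88-fold (adjusted p = 0.00453) and 2.29-fold (adjusted p = 0.00538). Abcg1, a sterol exporter, was highest in stem-enriched cells, 1.93-fold above cKit-positive cells (adjusted p = 0.0107), and Abca1, another, was 1.74-fold above cKit-negative cells (adjusted p = 0.026). Scap, which escorts SREBP, was 2.09-fold higher in cKit-positive cells than in the cKit-negative ones (adjusted p = 0.0119), and Tmem97, a sterol-regulated membrane protein, 3.68-fold (adjusted p = 0.0445). Mylip, which marks lipoprotein receptors for breakdown, was 2.23-fold lower there (adjusted p = 0.00315). A further 7 genes were called in 1 comparison each but not by the F test (limma). Higher in cKit-positive cells than in total marrow were Ppara, a regulator of fatty acid oxidation (adjusted p = 0.037), and Tm7sf2, a sterol reductase (adjusted p = 0.0438), and lower were Rnf139 (adjusted p = 0.0131) and Gpam, which starts glycerolipid synthesis (adjusted p = 0.0408). Apoe, an apolipoprotein, and Cpt2, of the carnitine shuttle, were higher in cKit-positive cells than in the cKit-negative ones (adjusted p = 0.0324 and 0.049). Hsd17b12, a reductase of fatty acid elongation, was higher in stem-enriched cells than in total marrow (adjusted p = 0.0185). None of the 8 tested genes of fatty acid oxidation passed the F test. Its unadjusted p was under 0.05 for 2 of them and for 4754 of all 13555 tested genes (limma).

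Chip lots of chip type A were shared in part between populations, but scan day largely followed population on both chip types. Among the replicated populations, only cKit-positive and cKit-negative cells had a scan day in common. All other comparisons set samples of different scan days against each other, so they have no value within a scan day. The single Sca-1-positive cKit-negative sample shared its chip lot and scan day with the total marrow samples on both chip types. Within 1 chip lot of chip type A, Scd2 was 1.25 higher on the log2 scale in stem-enriched cells than in the cKit-negative ones, and within another, the difference of 1 cKit-positive sample from 3 total marrow samples was -2.62 for Scd1 and 1.69 for Dhcr7. Each called member that could be compared within a lot kept its direction. These values come from part of the same samples, and where 2 groups do not overlap the direction could not have changed. Within the 1 scan day of chip type A that held both cKit-positive and cKit-negative cells, the differences were -1.85 for Fdft1, -0.68 for Sc5d, 1.05 for Dhcr7 and 0.81 for Scd2. Its cKit-positive samples were 2 and 3, and with sample 3 alone these differences were -0.87, -1.01, 1.16 and 0.98. Stem-enriched cells and total marrow shared neither a lot nor a scan day, so there is no within-batch value for them. A fit with chip lot as a block called 3 of the 7 genes, Scd1, Scd2 and Fads2, and also Idi1. In that fit 7.67% of all tested genes were called between these populations, against 16.7% without the block.

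**Figure D4:**
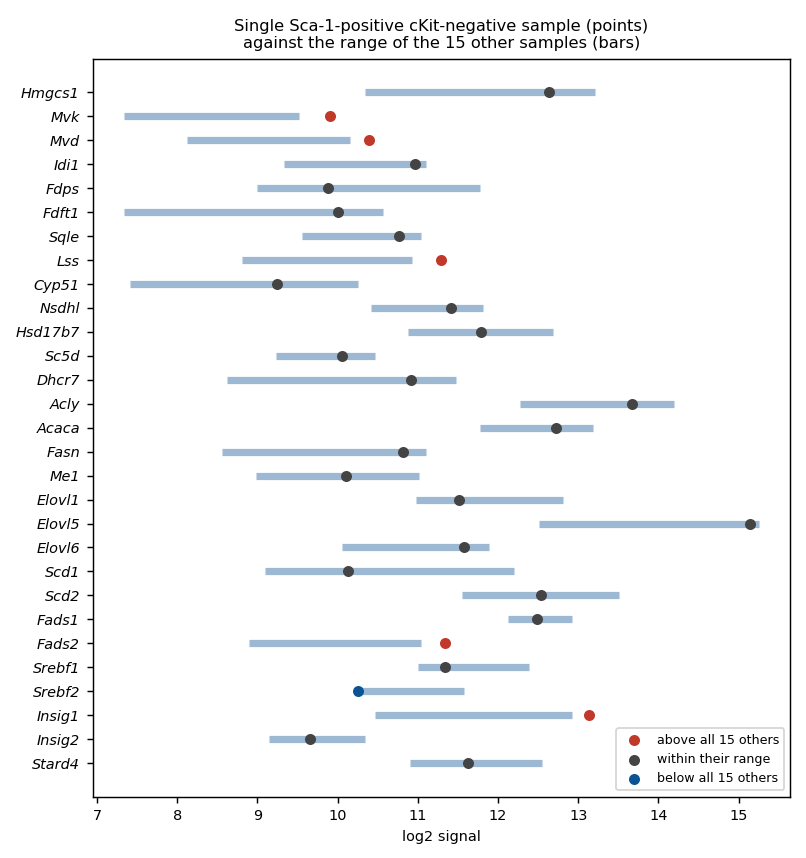
Log2 signal of 29 genes in the single Sca-1-positive cKit-negative sample (points) and the range of the 15 other samples (bars). The 5 red points, Mvk, Mvd, Lss, Fads2 and Insig1, lie above all others, and the blue point, Srebf2, lies at the lower end of the bar (10.25).

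The single Sca-1-positive cKit-negative sample, without a replicate and without a test, lay above all 15 other samples for 5 of the 29 genes (17.2%, against 7.89% of all tested genes) and below for 1 (3.45%, against 7.37%). The plot of this sample against the others' range shows the 5 as Mvk, Mvd, Lss, Fads2 and Insig1 and the 1 as Srebf2, whose level of 10.25 equals that of the lowest other sample at this precision. Its Scd1 level, 10.13, and Scd2 level, 12.53, lay between those of stem-enriched cells and total marrow, and its Elovl6 level, 11.58, lay among the stem-enriched samples. T and NK cell markers averaged 12.47 in it, above the 8.74 to 12.03 of the other samples, and their part in these values was not tested.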

How the data were processed

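The deposited value is an intensity per probe set and array on a linear scale, made by the authors with MAS5 per the submitters' processing notes, which name no version. Each array came scaled by the authors: the 2% trimmed mean was 1500.1 to 1500.7 on the 32 arrays. Chip lots, scan days and sample descriptions were read from instrument records that the authors deposited (text, of the unit other).

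A floor at the 25th percentile of each chip type, 162.3 for A and 268.1 for B, was set before taking log2. Tested probe sets were those with 3 or more arrays above the median signal, 535.3 for A and 843.8 for B. The 45037 probe sets comprised 34945 with a single gene symbol, 932 with several and 9160 without a name here. A gene was represented by its probe set with the highest mean, and a fold against a population wholly at the floor is a lower bound. The limma model (limma 3.58.1, R 4.3.3) took population as its factor and an intensity trend, fitted per chip type to the 15 samples of 5 populations, and p-values were adjusted by Benjamini-Hochberg across the chip types together. It was checked on simulated data with independent, normally spread samples and no chip lot or scan day effect, so that check does not cover batches or an outlying sample. Precision is limited by 3 samples per population. Genes past the F test or called in a comparison are given with their values by sample, and others by ranges and counts; of the further genes, the 8 with the smallest F test p among those called and those called in a comparison were named. The members and lists were chosen with earlier results of these data known. Alternatives covered normalization, floor, filter, replicate number, chip lot, scan day, samples in the fit, variance trend, Gapdh ratio, probe set, fold minimum and each sample left out; probe sets without an x or s suffix and contrasts within a lot or scan day were chosen after seeing the data. Promoters were searched with Python 3.11.15 and figures drawn with matplotlib 3.10.9.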

Additional observations from a re-analysis of the deposited data

Results flagged for a closer look

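In the single Sca-1-positive cKit-negative sample, which enters no comparison, 5 genes lay above all 15 other samples. The log2 signal was 9.9 for Mvk (highest other 9.52), 10.39 for Mvd (10.15), 11.29 for Lss (10.93), 11.34 for Fads2 (11.04) and 13.14 for Insig1 (12.92). Each exceeded the highest other sample by 0.22 to 0.38. The population had 1 sample, so no spread between replicates is known.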

How the results depend on the processing

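In 1921 comparisons of a single-gene result with an alternative, 158 lost their call and 74 gained one. Part of the 1921 were F tests, which have no direction. The rest were contrasts called with all 15 samples or without cKit-positive sample 2, and no call among them reversed its direction. The F test calls of Scd1, Scd2 and Dhcr7 held under all 27 alternatives, Elovl6 under 24 of 27, Fdft1 under 22 of 26 and Sc5d under 19 of 26. Calls against total marrow held least for Mvk in cKit-positive cells (14 of 28) and Scd2 in lineage-depleted marrow (14 of 29). Counts of called genes that moved by more than 1.5 times were as follows, and the cause was not tested. Percentages are the share of all tested genes called in the same fit. This share was not counted for the mean over probe sets or for fits of only the compared populations. Between stem-enriched and cKit-positive cells (0, 2.46%) the count was 1 with chip lot as a block (2.87%). Between stem-enriched and cKit-negative cells (1, 9.9%) it was 3 with quantile normalization (9.77%) and 5 with the Gapdh ratio (14.8%). It was 2 with the floor at the 50th percentile (10.3%), no filter (6.46%), the filter at the 75th percentile (15.9%) or the mean over probe sets. With only the compared populations it was 6. Between cKit-positive and cKit-negative cells (4, 13.3%) it was 2 with no filter (8.59%), the replicate block (13%), chip lot (11.7%) or a 2-fold minimum (10.3%). With only the compared populations it was 0. Between stem-enriched cells and total marrow (7, 16.7%) it was 4 with no filter (10.9%) or chip lot (7.67%). It was 3 with scan day as a random block (10.7%) and 11 with only the compared populations. Between cKit-positive cells and total marrow (7, 20%) it was 3 with chip lot (11.5%), 4 with scan day (13.6%) and 2 with only the compared populations. Between lineage-depleted and total marrow (3, 5.19%) it was 1 with no filter (2.95%), 0 with scan day (1.77%) and 7 with only the compared populations. Leaving out 1 sample gave 4 to 11 genes in the F test, and 0 to 3, 1 to 7, 1 to 6, 4 to 12, 4 to 11 and 1 to 6 in these comparisons in the same order. The share of all tested genes in those fits was 14.4% to 29.1% in the F test. In the comparisons it was 0.738% to 5.08%, 5.97% to 17.1%, 7.4% to 16.2%, 10% to 25.5%, 12.3% to 23.9% and 1.43% to 11.8%. Samples with the same number deviated together little, if at all (median r 0.0148 over 30 pairs, 1 over 0.1, against -0.0031 for different numbers). Of the 15 samples, 9 correlated best with a sample of their own number, and whether samples were paired was not tested. The replicate block left 6 genes in the F test (19.2% of all tested genes). Fewer samples remain in fits of only the compared populations. Scan day could be fitted on chip type A alone. Dim probe sets near the floor, such as Mvk, have folds that depend on it.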
